A study of Mus musculus with 4 samples.

Results

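The transcripts described here are those of primary fibroblasts from C57BL/6 wild type mouse embryos that had received a negative control siRNA and had been growing in full serum for 24 h after a period of starvation. They were read from the 2 control siRNA arrays, of the 4 arrays of the series, and each array holds the RNA of a separate experiment. The siRNA was given at 60 nM with a lipid reagent for 12 h, the medium was then lowered to 0.2% serum for 48 h, and 20% serum was returned for 24 h together with a second dose of the siRNA. Both samples carry the same siRNA, the same reagent and the same change of serum, so the values are levels in this state and not responses to any of these. The other 2 arrays, which received an siRNA against Exportin-5, were not used here, and no contrast between siRNAs is given. The passage of the cells and the number of embryos behind each experiment are not given in the sources used here.

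Embryonic fibroblasts are mesenchymal cells that build and remodel the extracellular matrix, and on plastic they spread, form actin stress fibres and take on features of myofibroblasts. In low serum they leave the cell cycle and rest, and the return of serum brings them back through G1 into DNA replication and mitosis. Such cultures are commonly started from minced embryos and can therefore hold mesenchymal cells of several body regions and a few cells of other types. A level measured in the whole culture does not separate fewer cells of a type from less RNA per cell, and this holds for every value below.

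Each sample was labelled with Cy3 and hybridised to its own 1-colour array, whose 41174 non-control probes were read on 43379 spots. Levels are given as the log2 of the processed signal minus that array's 75th percentile, so that 0 is the signal of a probe at that percentile, 1 unit is a 2-fold difference, and values are given as replicate 1 and then replicate 2. Of the probes, 32843 could be paired with an official gene symbol, and they cover 19891 genes. A gene is represented by its brightest probe, and its percentile is its rank among all of these genes, with 100 at the bright end. A gene was counted as well above background on both arrays when at least 1 of its probes carried that flag of the scanner software on both. This held for 13591 genes, or 68.3%, while 739 genes were well above background on 1 array only and 5561, or 28.0%, on neither. The genes in the top 5% by mean signal, 995 in number and 5.00% of all, lie between 4.42 and 9.68. These 3 shares are the background against which the counts of each gene group are read. Counts of the 79 gene lists were repeated with a weaker flag of the scanner software (signal positive and significant). They were also repeated with the demand that the majority of a gene's probes be well above background. Where this moves a list's count on both arrays by over 1.5 times, the other count is given beside it. Counts of the families defined by the stem of their names were not repeated in this way, so their stability is not known.

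**Figure D1:**
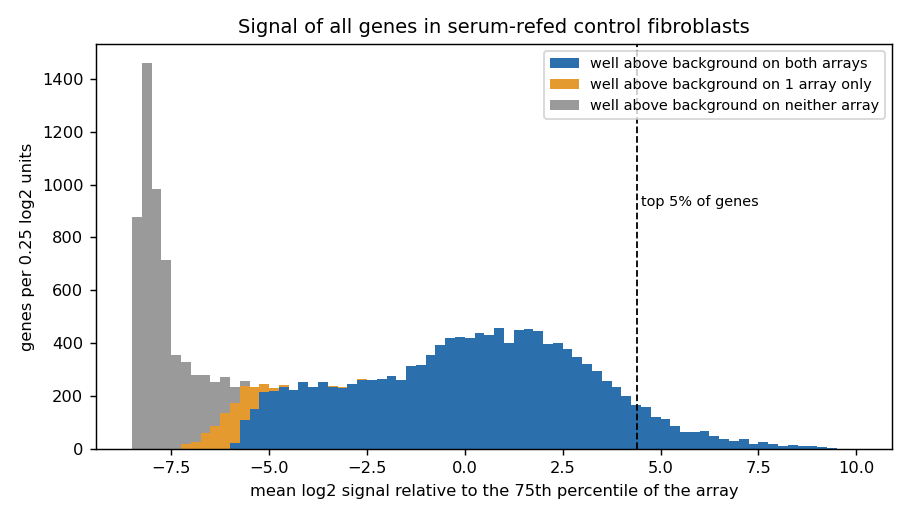
Number of genes (vertical axis) by mean log2 signal, scaled to each array's 75th percentile (horizontal axis), coloured by whether the gene was well above background on both control arrays, on 1 only or on neither. Genes on both arrays reach from -5.96 to 9.68, genes on neither array pile up near -7.91, and the dashed line at 4.42 marks the top 5%.

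The arrays agreed closely for genes with signal. Over the genes well above background on both, the median absolute difference between the arrays was 0.20 log2 units, 98.4% of genes lay within 2-fold, and the correlation across genes, which are not independent replicates, was 0.993. Replicate 1 was the brighter by a median of 0.09, with 61.6% of these genes higher there. In the top 5% of genes 99.8% lay within 2-fold, against 47.2% of those on 1 array only. Repeated spots of the same probe on an array varied by a median SD of 0.104 and 0.0865. The lowest signal well above background was -5.97 and -6.13. Across the 5561 genes on neither array the correlation between the arrays was 0.613, and no order among them is read here. No spot was saturated, and spiked-in transcripts followed their known amounts with a slope of 1.02 and 1.03 over 5.29 and 5.23 decades.

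The main limit lies between genes and not between arrays. Probes differ in how well they bind their target, so the order of genes is an order of probe signals, and it carries no scaling by transcript length. The size of this limit can be read from genes with several probes. Among 5815 genes with at least 2 probes on both arrays, the median range between the dimmest and the brightest was 2.69 log2 units (quartiles 1.33 to 4.50), and 40.4% of these genes spanned over 10-fold. A gap between 2 genes that is smaller than this says little about their transcripts. For this reason genes are placed below by their band (top 5%, both arrays, 1 array or neither) and by their percentile, and groups by their counts and median percentile.

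The 2 experiments differ in the sex of the cells, as far as sex-linked transcripts show it. Xist, the noncoding RNA that coats the inactive X chromosome of female cells, read 3.0 on replicate 1 and -8.29 on replicate 2, and each of its 4 probes was well above background on replicate 1 only. Its antisense partner Tsix read 0.72 and -8.13. The Y-linked genes ran the other way, with Ddx3y at -8.17 and 1.67, Eif2s3y at -7.96 and 1.38, Kdm5d at -7.63 and -1.83 and Uty at -7.83 and -5.06. Usp9y, Uba1y and Sry were well above background on neither array, while Zfy1 (-3.43 and -2.94) and Zfy2 (-4.11 and -3.73) were so on both. Xist and Tsix were thus well above background on replicate 1 only, and Ddx3y, Eif2s3y, Kdm5d and Uty on replicate 2 only. On the other array the value of each is below background and serves only as a bound. Genes of the X chromosome were higher on replicate 1 by a median of 0.13 where detected on both arrays, against 0.06 to 0.11 on the autosomes. With 2 samples, sex, experiment and slide cannot be told apart, and any gap between the arrays below carries all of them.

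**Figure D2:**
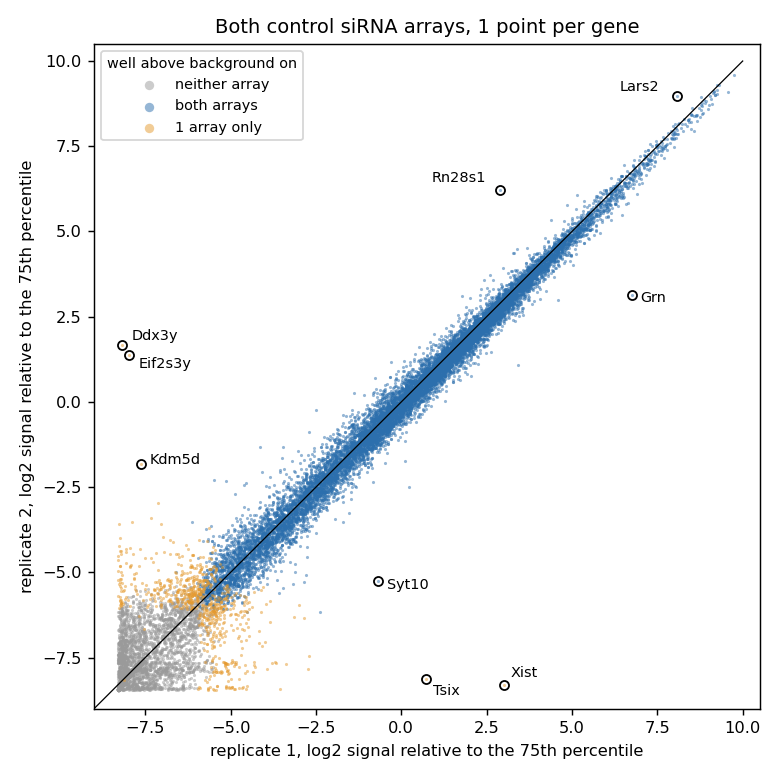
Log2 signal of every gene on replicate 1 (horizontal axis) and replicate 2 (vertical axis), each scaled to its own 75th percentile, coloured by the arrays on which the gene was well above background. Most genes lie along the line of equal signal, with Xist and Tsix far to the replicate 1 side and Ddx3y, Eif2s3y and Kdm5d far to the replicate 2 side.

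The 10 detected genes with the largest gap between the arrays were mostly dim. Syt10, a synaptotagmin of secretory vesicles, read -0.68 and -5.26, and Strip2 -2.37 and -6.16, the latter at the edge of background. Myo7b read -5.48 and -2.28, Ripor3 -5.13 and -2.32, Ebf4 -6.14 and -3.51, and the connexin gene Gjd3 -4.15 and -1.31. Ebf4 on replicate 1 and Strip2 on replicate 2 lay below the lowest signal well above background there (-5.97 and -6.13). These 2 values serve only as bounds. Mchr1 at 0.22 and -2.49 and Gabra5 at -2.84 and -5.29 were higher on replicate 1. The bright exceptions were Grn, which encodes the growth factor precursor progranulin, at 6.75 and 3.14, and Rn28s1, the large ribosomal RNA, at 2.89 and 6.23. These were the only 2 of the 995 genes in the top 5% that differed over 2-fold between the arrays.

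Of the 25 genes with the highest signal, 13 encode proteins of the ribosome, among them Rplp1 (9.58 and 9.10), Rps2 (9.32 and 9.29), Rplp0 (9.24 and 9.29) and Rps23 (9.26 and 9.14), the others being Rps18, Rps12, Rps20, Rpl41, Rpl37a, Fau, Rpl7a, Rplp2 and Rps16. Rack1 (8.86 and 8.87) is a scaffold protein on the small ribosomal subunit. Col1a2, a chain of type I collagen, read 9.19 and 9.0. Tagln, an actin-binding protein of smooth muscle and stress fibres, read 9.05 and 8.98, and Acta2, the smooth muscle actin that marks myofibroblasts, 8.94 and 8.82. Secreted and calcium-binding proteins were S100a6 (9.13 and 9.05), S100a4 (8.73 and 8.62) and the galectin Lgals1 (9.02 and 8.72). COX2, a cytochrome oxidase subunit encoded by the mitochondrial genome, read 8.98 and 8.59. Gm6607 and Gm10263, at 8.80 and 8.68 and at 8.78 and 8.57, are annotated as a transcribed pseudogene and a pseudogene, and a probe for such a copy may also bind the parent transcript. On both arrays these 25 genes are far above the 4.42 that opens the top 5%.

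Most of this order is stable between the arrays, but part of it rests on single probes. Ptprz1, a receptor tyrosine phosphatase best known from glia, had the highest signal of all, at 9.76 and 9.60, from a probe at chr6:22951569-22951628 of the mm9 build. Its other 3 probes read 1.96, -3.0 and -8.35 as means of both arrays, and the last of them, at chr6:22951891-22951950, was well above background on neither array. Averaged over its probes, Ptprz1 falls to rank 5183. Lrrc58, a leucine-rich repeat protein, read 8.79 and 8.95 with 1 probe and 2.19, -1.33 and -1.92 with the others, and falls to rank 2557. Acta2 had 5 probes, all well above background on both arrays, with means of 8.88, 6.55, 4.37, -0.53 and -3.75, and Col1a2 had 2, at 9.10 and -0.77. Of the 995 genes in the top 5%, 498 had 1 probe, and 300 of the other 497 leave the top 5% when probes are averaged. Averaging also moved Rps2 to rank 1479, Acta2 to 1401, Col1a2 to 730, Rps20 to 557, Rps12 to 502 and Rps18 to 410. By the median probe Rps2 and Rps18 held ranks 39 and 38. The place of these genes, as of Ptprz1 and Lrrc58, at the head of the order is therefore a statement about the brightest probe of each.

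**Figure D3:**
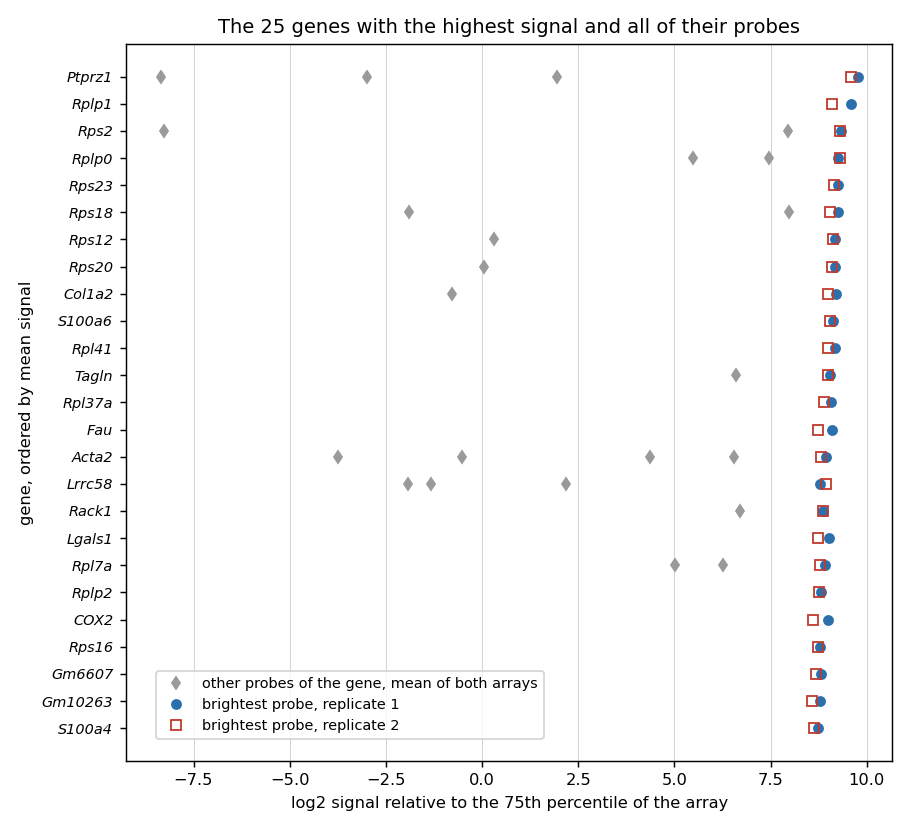
The 25 genes with the highest mean signal (vertical axis, in order) and their log2 signal, scaled to each array's 75th percentile (horizontal axis). Circles and squares are the brightest probe on replicates 1 and 2, which nearly coincide, and diamonds are the other probes of the gene, which reach down to -8.35 for Ptprz1 and -8.28 for Rps2.

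A small number of genes made up much of the signal. The 25 brightest held 11.3% and 11.1% of the signal summed over all genes, the 100 brightest 28.2% and 27.9%, and the top 5% 69.0% and 68.4%. The 79 cytosolic ribosomal protein genes alone held 16.5% and 16.3%. The 5561 genes on neither array held 0.0252% and 0.0275%. These shares are of fluorescence, and they carry the probe differences described above.

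The promoters of 5 genes are printed as examples of the motifs searched, and they were not chosen to stand for the bright or the dark genes at large. The 120 bases before the start of the gene are given 5′ to 3′ on the strand of the gene, from the RefSeq promoter windows on GRCm38.p6, with the letters of TATAAA or a CArG box (the binding motif of serum response factor) in capitals. S100a4 and Vim were chosen because they are in the top 5% and carry TATAAA. The cytoskeletal gene Actg1 was chosen for its CArG box and the ribosomal gene Rps2 as a bright gene with no such match. Alb, the albumin gene of the liver, is an example of a gene on neither array with no such match.
S100a4: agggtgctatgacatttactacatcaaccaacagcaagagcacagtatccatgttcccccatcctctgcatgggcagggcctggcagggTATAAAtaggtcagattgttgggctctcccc
Vim: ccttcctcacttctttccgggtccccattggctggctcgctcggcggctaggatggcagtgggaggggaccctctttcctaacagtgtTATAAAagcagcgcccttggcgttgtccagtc
Actg1: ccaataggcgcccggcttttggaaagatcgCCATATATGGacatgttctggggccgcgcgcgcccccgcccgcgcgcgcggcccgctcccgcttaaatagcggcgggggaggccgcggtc
Rps2: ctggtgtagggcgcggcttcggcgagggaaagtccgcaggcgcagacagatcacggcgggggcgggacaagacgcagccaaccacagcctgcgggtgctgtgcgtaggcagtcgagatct
Alb: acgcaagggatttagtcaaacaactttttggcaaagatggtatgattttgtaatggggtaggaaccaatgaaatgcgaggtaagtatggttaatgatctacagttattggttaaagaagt
These lie at chr3:90603650-90603769 (plus strand), chr2:13574191-13574310 (plus), chr11:120348496-120348615 (minus), chr17:24719943-24720062 (plus) and chr5:90460750-90460869 (plus). TATAAA begins at base -31 in S100a4 and -32 in Vim, counted from the start, and the CArG box of Actg1 begins at -90. The stretches hold 0, 6, 19, 13 and 2 CG dinucleotides in that order. A match is a description of the letters and not a site of binding.

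Over all genes with a RefSeq window, the number of CG dinucleotides followed the detection classes. Windows reached from 250 bases before to 50 bases after the start, and 15677 genes had one, the first being taken where there were several. The median was 22 CG in the top 5%, 20 in the other genes on both arrays, 5 in genes on 1 array and 4 in genes on neither, against 16 over all of these genes. By band of 5 percentile points, the share of genes on both arrays passed from 0.503% between the percentiles 25 and 30 to 99.4% between 35 and 40. The median of CG was 7 between 30 and 35, 11, 14 and 19 in the next 3 bands, where nearly all genes were detected, and 20 to 23 above the percentile 50. TATAAA, searched on the strand of the gene in the 50 bases before the start, was found in 3.16% of windows over all genes. It was present in 5.77% of genes on neither array, in 1.91% of the genes on both arrays below the top 5% and in 3.56% of the top 5%. Between the percentiles 50 and 95 the share was 0.738% to 1.63% in each band of 5 points. The 28 genes of the top 5% with TATAAA include S100a4, Vim, Anxa1 and the tubulin gene Tubb2a. With genes of a single window only, the medians of the 4 classes, in the same order, were 22, 21, 5 and 4.

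Ribosomal protein genes carried CTTT at the start more often than all genes did, though most of them lacked it. These genes are known to start transcription in a run of pyrimidines, and CTTT on the strand of the gene within 5 bases before to 10 bases after the start was found in 14 of 58 windows, or 24.1%, among them Rpl7a, Rplp2 and Fau. The share was 5.10% over all genes and 4.48% in the 67 windows of mitochondrial ribosomal proteins, whose products work in the same process but in another compartment. TATAAA was in 0 of the 58. A CArG box, whose pattern reads the same on both strands, was searched in the whole window and was in 1.42% of all genes and in 2 of 19 immediate-early genes, Srf and Zfp36.

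**Figure D4:**
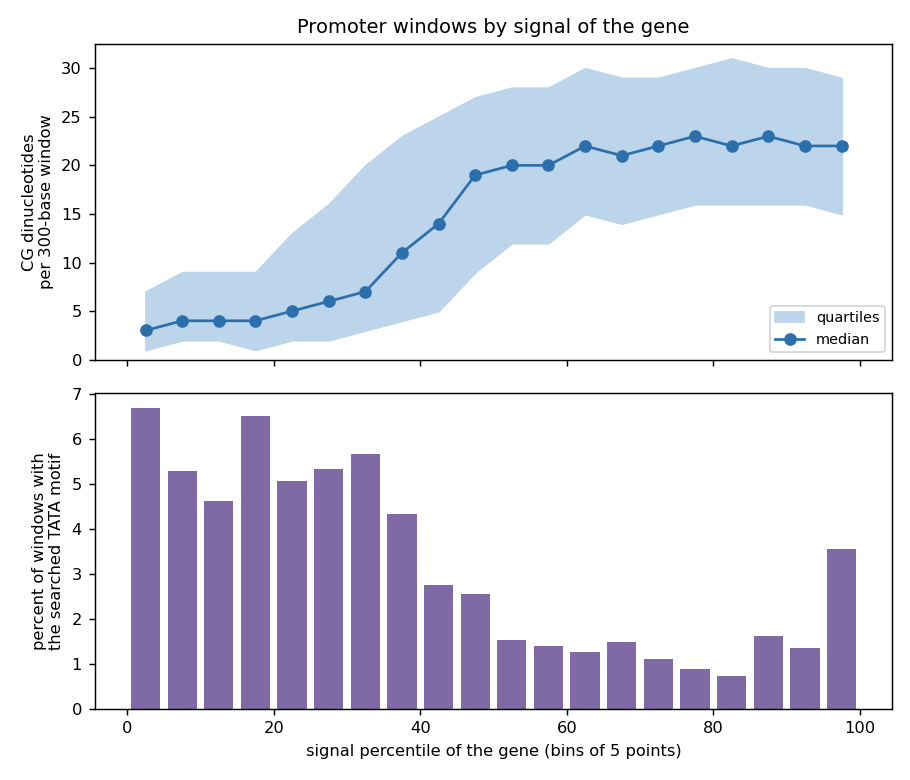
CG dinucleotides per 300-base RefSeq promoter window, as median and quartiles (upper panel), and percent of windows with TATAAA in the 50 bases before the start (lower panel), by signal percentile of the gene in bins of 5 points (horizontal axis). The median of CG is 3 to 5 in the bins below the percentile 25 and 22 in the highest. Those low bins hold no gene on both arrays, and no order is read among them. The share with the motif is 4.62% to 6.69% below the percentile 25, at most 1.63% between 50 and 95, and 3.56% in the highest bin.

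Among matrix genes, fibrillar collagens and their processing enzymes were the most completely detected. All 11 fibrillar collagen chains were on both arrays, 6 of them in the top 5%, with a median percentile of 95.2 against 50 over all genes. That median fell to 78.4 when the probes of each gene were averaged. After Col1a2 came Col1a1 (8.29 and 8.29), Col3a1 (6.65 and 6.28), Col5a1 (6.31 and 6.22), Col5a2 (4.72 and 4.97) and Col5a3 (4.54 and 4.42), the chains of types I, III and V that make the fibrils of skin and tendon. The network and other collagens spread wider, with 21 of 31 on both arrays and 6 in the top 5%. Col8a1 read 6.97 and 7.09, Col7a1 5.29 and 5.42, Col16a1 5.38 and 5.19, Col4a1 and Col4a2 of basement membranes 5.15 and 5.19 and 4.48 and 4.60, and Col6a1 4.75 and 4.49. On 1 array only were Col19a1, Col9a1 (-7.88 and -3.52) and Col20a1, and on neither Col17a1, Col6a5, Col25a1, Col6a6, Col13a1, Col28a1 and Col4a3. Every one of the 24 collagen processing genes was on both arrays, with a median percentile of 88.0. Pcolce, which enhances the trimming of procollagen, read 7.87 and 7.59, the collagen chaperone Serpinh1 6.76 and 6.54, and Ppib 5.76 and 5.45. P4hb, a subunit of prolyl hydroxylase, read 5.37 and 5.37, and the crosslinking enzymes Loxl2 and Loxl1 5.47 and 5.18 and 5.44 and 5.03.

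Most glycoproteins and proteoglycans of the matrix were detected, and a minority was in the top 5%. Of 42 glycoproteins 37 were on both arrays and 12 in the top 5%, with a median percentile of 85.2. Sparc, a collagen-binding protein, read 8.43 and 8.22, the fibulins Fbln2 and Efemp2 7.33 and 7.09 and 6.30 and 6.35, and Ltbp2 6.41 and 6.53. The basement membrane linker Nid1 read 6.03 and 5.56 and Spp1, or osteopontin, 5.51 and 5.49. Fn1, the fibronectin gene, named here outside the rule for genes of high signal, read 3.29 and 4.38 and lies below the top 5%. Matn3, Matn4 and the serum protein Vtn were on 1 array, and Matn1 and Tnr, of cartilage and brain, on neither. Of 30 proteoglycans 27 were on both arrays and 4 in the top 5%, with a median percentile of 73.0. The small leucine-rich Dcn read 5.60 and 5.23, the basement membrane proteoglycans Hspg2 and Agrn 5.46 and 5.18 and 4.82 and 4.78, and the membrane-anchored Gpc1 and Gpc4 5.46 and 5.13 and 3.90 and 3.78. Bgn, a close relative of Dcn, differed more between the arrays, at 3.28 and 4.36. The brain proteoglycans Bcan and Ncan, and Gpc5, were on neither array. Of 11 laminin subunits 7 were on both arrays, led by Lamc1 (4.90 and 4.37), Lamb1 (3.22 and 3.48), Lama4 (2.47 and 2.19) and Lamb2 (2.07 and 2.24), followed by Lama5. Lama3 was on 1 array, and Lama1, Lamc3 and Lamb3 were on neither.

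Among the inhibitors of matrix proteases 3 were in the top 5%. Timp2 read 8.12 and 8.14, Timp1 8.25 and 7.95 and Timp3 6.34 and 5.75. Of the proteases themselves, Mmp14, which sits in the membrane, read 5.83 and 5.86, and Mmp2, the gelatinase that it activates, 2.77 and 2.92, with Mmp11 at 2.40 and 2.19. Of the 25 genes of this list 15 were on both arrays, Mmp24, Timp4 and Mmp15 on 1, and Mmp12, Mmp7, Mmp25, Mmp1a, Mmp21, Mmp8 and Mmp20 on neither. Of the serpins, most of which inhibit other proteases, Serpinf1 read 6.98 and 6.67, and 31 of 58 were on neither array.

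Receptors for the matrix were detected more widely than the junction proteins of epithelial sheets. Of 25 integrin subunits 20 were on both arrays, which is 80.0% against 68.3% of all genes. Itgb5 read 5.18 and 5.20, the collagen-binding Itga11 4.23 and 3.91, the common beta chain Itgb1 4.15 and 3.91, the fibronectin-binding Itga5 3.56 and 3.13, Itgb3 2.75 and 2.61 and Itgav 1.88 and 1.67. Itga10, Itga2 and Itgax were on 1 array and Itgae and Itgb6, of intraepithelial lymphocytes and epithelia, on neither. Of 22 cadherins 12 were on both arrays, or 6 by the majority of probes, led by the mesenchymal Cdh11 at 2.98 and 2.75 and then Cdh13 (0.82 and 0.72), Cdh2 (0.09 and -0.61), Cdh3, Cdh20 and Cdh10. Cdh15 and Cdh16 were on 1 array, and Cdh1 and Cdh5, the cadherins of epithelium and endothelium, were on neither, with Cdh22, Cdh8, Cdh12, Cdh9, Cdh19 and Cdh7. Claudins, which seal tight junctions, had 5 of 21 on both arrays, or 23.8%, and 9 with the weaker flag. Cldn12 read 0.72 and 0.46, and Cldn9, Cldn15, Cldn14 and Cldn3 lay at -3.86 or below on both arrays. Cldn4 (-8.27 and -3.57) and Cldn13 were on 1 array, and Cldn7, Cldn1, Cldn2, Cldn5, Cldn6, Cldn8, Cldn10, Cldn11, Cldn16, Cldn17, Cldn18, Cldn19, Cldn22 and Cldn23 on neither. Of 20 connexins 10 were on both arrays, led by Gjc1 (2.27 and 1.92), Gjb2 (1.91 and 1.67) and Gja1 (-0.12 and 0.08). Gja10 and Gja5 were on 1 array and Gjd2, Gjc3, Gjb6, Gja6, Gje1 and Gjd4 were among the 8 on neither.

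The actin cytoskeleton was read at its smooth muscle and its common forms together. Of 12 actin genes 8 were on both arrays and 5 in the top 5%. Besides Acta2, Actg1, the cytoplasmic gamma actin, read 8.02 and 8.05, Actc1 and Actg2, of heart and of visceral smooth muscle, 5.15 and 6.06 and 4.86 and 5.78, Actb 4.73 and 5.06 and the skeletal Acta1 3.96 and 4.34. These 6 genes are near-identical in their coding sequence, so a probe may bind more than 1 of them, and how far each value belongs to its own gene was not tested. Actl6b was on 1 array, and Actl7b, Actl7a and Actbl2 on neither. Tropomyosins, calponins and alpha-actinins, which bind along the filaments, had 15 of 16 on both arrays, 10 in the top 5% and a median percentile of 97.8. Tpm4 read 7.22 and 7.12, Tpm1 6.96 and 6.79, Tpm3 6.73 and 6.60, Tpm2 6.58 and 6.64 and Actn4 6.19 and 6.18, and Actn2, of the muscle Z disc, was on neither array. Of 12 myosin heavy chains 6 were on both arrays, or 3 by the majority of probes. Nonmuscle Myh9 read 7.67 and 7.78 and Myh10 2.73 and 2.70, and smooth muscle Myh11 -1.38 and -0.68, followed by Myh14 (-2.76 and -3.26), the cardiac Myh7 (-4.83 and -5.04) and the skeletal Myh2 (-5.52 and -4.85). The skeletal chains Myh1, Myh3, Myh4 and Myh13 and the cardiac Myh6 were on neither array, and Myh8 was on 1. Of 12 light chains 10 were on both arrays, with Myl6 at 8.83 and 8.47, Myl9 at 8.19 and 8.04 and Myl12b at 6.82 and 7.11 in the top 5%, Myl12a, the cardiac Myl7 (-0.99 and -1.07) and Myl4 next, and the cardiac Myl2 and Myl10 on neither array.

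Filament turnover and membrane caveolae were also in the bright part of the order. Tmsb4x, which holds actin monomers, read 7.35 and 7.52, Arpc1b of the branching complex 7.04 and 7.0, the severing factor Cfl1 6.91 and 6.10, Tmsb10 6.29 and 5.93, Actr3 6.02 and 5.72 and Dstn 5.14 and 5.26. Of this group of 17, 15 were on both arrays, Pfn4 on 1 and Pfn3 on neither. All 16 tubulins were on both arrays, 7 of them in the top 5%, led by Tubb5 (8.03 and 7.90), Tuba1c (7.74 and 7.54), Tubb6 (7.50 and 7.52), Tuba1a (7.47 and 7.54), Tubb2a (7.32 and 7.28) and Tuba4a (6.02 and 6.13). All 7 caveolin and cavin genes were on both arrays, with Cavin1 at 7.54 and 7.35, Cavin2 at 6.04 and 6.10 and Cav1 at 5.82 and 5.74. Vim, the intermediate filament of mesenchymal cells, read 8.02 and 8.16 and the nuclear lamin gene Lmna 7.28 and 7.56. Nes read 3.94 and 3.95, Lmnb1 3.24 and 2.59, Lmnb2 -0.29 and 0.02 and Des, of muscle, -2.10 and -1.75. Bfsp2 was on 1 array and the neural and glial Prph, Gfap and Nefh were on neither. Keratins, the epithelial counterpart, had 14 of 39 on both arrays, or 23 with the weaker flag, and 21 on neither. The simple-epithelial Krt18 (2.43 and 2.13) and Krt19 (1.41 and 1.46) came first, then Krt20, Krt7, Krt10 and Krt8 (-2.12 and -2.96), with Krt1, Krt84, Krt15 and Krt6b on 1 array.

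Receptors for FGF were detected in full, and their ligands in part. For the PDGF and VEGF axis 20 of 23 genes were on both arrays. Csf1, the macrophage growth factor, read 5.19 and 4.95, Pdgfa 4.34 and 4.41, the fibroblast receptor Pdgfrb 3.94 and 3.55, Nrp2 3.62 and 3.31, Flt1 3.34 and 3.34 and Vegfb 3.0 and 2.74. Pdgfb was on 1 array, and the receptors Flt3 and Kit on neither. All 5 FGF receptor genes were on both arrays, with Fgfrl1 at 1.40 and 1.34 and Fgfr1 at 0.88 and 1.53, followed by Fgfr2, Fgfr4 and Fgfr3 at -0.69 or below. Of 21 FGF ligands 10 were on both arrays and 11 on neither, and by the majority of probes 6 were on both. Fgf7, a mesenchymal factor that acts on epithelia, read 1.36 and 1.19, Fgf18 -0.79 and -1.0, Fgf2 -2.80 and -2.19 and Fgf10 -2.47 and -3.28. Those on neither array were Fgf14, Fgf17, Fgf12, Fgf1, Fgf22, Fgf23, Fgf15, Fgf16, Fgf20, Fgf6 and Fgf3. In the EGF family Hbegf (3.62 and 3.76), Egfr (2.49 and 2.75) and Erbb2 (-0.01 and -0.28) led, Nrg1, Ereg and Areg followed, Tgfa and Btc were on 1 array, and Erbb3, Erbb4, Nrg2, Nrg3 and Nrg4 on neither.

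The insulin-like growth factor axis held some of the brightest secreted factors. Igf2, a fetal growth factor, read 7.44 and 7.04 and Igfbp7 6.80 and 6.70, both in the top 5%. The receptors Igf2r and Igf1r read 3.68 and 3.86 and 2.43 and 2.33, Igfbp6 3.67 and 3.41 and Irs1 2.37 and 2.12. Of 16 genes 14 were on both arrays, and Ins1 and the hepatic Igfbp1 were on neither. In the TGF-beta and activin axis 25 of 27 genes were on both arrays, which is 92.6%. Inhba, the activin A subunit, read 5.98 and 6.12, Fstl1 6.01 and 5.90, Tgfb3 5.51 and 5.45, the shared mediator Smad4 3.48 and 3.45, the receptor Tgfbr2 3.49 and 3.24 and Inhbb 3.15 and 2.95. Acvr1c and Lefty2 were on neither array. The BMP axis had 18 of 24 on both. Its readout genes Id3, Id2 and Id1 read 4.77 and 5.31, 3.58 and 2.76, and 2.65 and 2.72, the antagonist Grem1 2.85 and 3.16, and Smad5 2.71 and 2.69. Smad9 was on 1 array, and the ligands Bmp2, Bmp7, Bmp5, Bmp10 and Bmp15 were on neither.

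No gene of the Wnt, Notch and Hedgehog lists was in the top 5%, and their shares on both arrays, 68.4%, 69.2% and 63.6%, lay close to that of all genes. Their median percentiles, 38.9, 40.5 and 37.4 in that order, lay below the 50 of all genes. Of 15 Frizzled and coreceptor genes, the receptors for Wnt, 14 were on both arrays, led by Fzd2 (3.51 and 3.36), Ryk (3.23 and 2.74), Fzd1 (2.27 and 1.87) and Fzd7 (1.55 and 0.89), followed by Lrp5 and Fzd4, and Ror1 was on neither. Of 19 Wnt ligands 13 were on both arrays. Wnt9a read 0.77 and 0.59, Wnt2 0.26 and 0.61, Wnt11 -1.04 and -0.95 and Wnt5a -2.31 and -1.24, with Wnt10a and Wnt4 near them. Wnt9b was on 1 array and Wnt7a, Wnt3, Wnt8a, Wnt3a and Wnt8b on neither. Notch2 (1.97 and 1.95), Jag1 (0.52 and 1.00), Notch3 (0.58 and 0.49) and Notch1 (-0.92 and -1.03) were on both arrays, as were the targets Hes1 and Hey1, while the ligands Dll1, Dll3, Dll4 and Jag2 were on neither. In the Hedgehog pathway Smo read 4.26 and 4.38, Gli3 2.65 and 2.27 and Sufu 0.28 and 0.10, followed by Gli2, Dhh and Hhip. The ligands Shh and Ihh and the target Gli1 were on neither array.

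The transcripts of the cell cycle were present throughout, in cells a day after the return of serum. All 25 MCM and origin genes, all 29 replication fork genes and all 35 mitotic genes were on both arrays, against 68.3% of all genes, with median percentiles of 78.1, 84.4 and 78.3. Of the replicative helicase, Mcm6 read 5.63 and 5.85, Mcm4 4.77 and 4.71, Mcm7 4.48 and 4.32 and Mcm3 3.79 and 3.96, and of the factors that load it Orc6 3.75 and 3.65 and Cdt1 3.54 and 3.71. At the fork, the sliding clamp Pcna read 5.23 and 5.00, the nucleotide-making enzymes Rrm1, Tyms and Tk1 4.57 and 4.50, 4.10 and 4.10, and 4.17 and 3.84, the clamp loader Rfc2 4.47 and 4.48 and the ligase Lig1 3.99 and 3.96. Of mitosis, Birc5, or survivin, read 6.26 and 6.23, Cdc20, which activates the anaphase-promoting complex, 5.83 and 5.55, Prc1 of the spindle midzone 5.16 and 4.98, Kif20a 4.90 and 4.75, Mki67, the Ki-67 proliferation antigen, 4.73 and 4.72 and Ccnb2 4.59 and 4.49. A whole-culture level does not say which share of the cells was in each phase.

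Cyclins, kinases and their inhibitors were read side by side. Of 21 cyclins 19 were on both arrays and 6 in the top 5%. The D-type cyclins of G1 were all bright, with Ccnd2 at 6.22 and 6.15, Ccnd3 at 4.49 and 4.54 and Ccnd1 at 4.44 and 4.46. Ccne1 read 4.73 and 4.90 and Ccng1 4.48 and 4.63, and the germ-line Ccna1 and Ccnb3 were on neither array. Among 22 kinases Plk1 (5.04 and 4.99) and Aurka (4.88 and 5.01) of mitosis were in the top 5%, then Cdk4 (3.74 and 3.97), Cdk1 (2.81 and 3.07), Cdk6 (2.58 and 3.0) and Pkmyt1 (2.83 and 2.72), and Plk5 and the germ-line Aurkc were on neither. All 12 genes of the list of inhibitors and pocket proteins, which also holds the p53 gene Trp53, were on both arrays. Cdkn1a, the p53 target that encodes p21, read 5.25 and 4.73, Cdkn2b 3.78 and 3.63, Cdkn3 2.95 and 2.88, Cdkn1c 2.51 and 2.21, Trp53 2.02 and 1.08 and Cdkn2d 1.46 and 1.53. All 10 E2F and DP genes were on both arrays, at a median percentile of 67.4, with E2f6 at 3.23 and 3.37, Tfdp1 at 3.01 and 2.31, E2f3 at 1.63 and 1.40 and E2f7 at 1.06 and 0.79, then E2f5 and E2f1.

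Genes of rest and of the first serum response were both on the arrays. All 17 genes linked to quiescence were on both, among them Gas5 (5.55 and 5.43), Gas6 (5.14 and 5.11), Klf2 (5.35 and 4.66), Klf4 (4.45 and 4.10), Btg1 (3.06 and 3.10) and Btg2 (1.99 and 1.93). Of 26 immediate-early genes 25 were on both, at a median percentile of 78.0. Ccn2 and Ccn1, matrix-associated targets of serum and of YAP, read 6.99 and 7.21 and 5.28 and 5.22, Junb 5.29 and 5.12, Ier5 4.92 and 5.05, Jund 4.80 and 4.41 and Nr4a1 4.40 and 4.34. Nr4a3 was on neither array. Fos, named outside the rule for genes of high signal, read -0.43 and -0.39. All 11 genes of the Myc and Mxd family were on both arrays, led by Max (3.76 and 3.43), Mnt (3.39 and 2.83) and Myc (2.09 and 1.85), and followed by Mxd4, Mxd3 and Mlx.

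Genes of protein synthesis, folding and breakdown were detected almost without exception, and many were in the top 5%. All 79 cytosolic ribosomal protein genes were on both arrays and 75 of them in the top 5%, with a median percentile of 99.6. Mitochondrial ribosomal proteins were all on both arrays too, 76 of 76, with 12 in the top 5% and a median percentile of 87.7, led by Mrpl33 (6.51 and 6.39), Mrpl20 (6.01 and 5.80) and Mrpl52 (5.90 and 5.70). Of 43 proteasome subunits 42 were on both arrays and 19 in the top 5%, led by Psmb3 (6.55 and 6.32), Psma2 (6.44 and 6.33) and Psmd3 (6.42 and 6.31). The thymic Psmb11 was on neither array. Of 42 translation factors 40 were on both and 21 in the top 5%. Eef1g read 7.61 and 7.66, the poly(A)-binding Pabpc1 7.64 and 7.50, Eef1a1 7.57 and 7.49, Eef1b2 7.44 and 7.08, Eif1 7.08 and 7.0 and Eif3c 6.53 and 6.42. Eef1a2, the elongation factor of muscle and neurons, was on neither array (-8.07 and -8.10), and Pabpc6 was on 1. Of 40 chaperones 36 were on both and 21 in the top 5%, with Hspa8 at 7.10 and 7.12, Hsp90b1 at 7.02 and 6.73, Hspd1 at 6.54 and 6.42, Hsp90aa1 at 6.38 and 6.41, Pdia6 at 6.33 and 6.33 and Cct5 at 6.26 and 6.34. Hspa1l and Hspb7 were on 1 array and the lens crystallin Cryaa and Hspb3 on neither.

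Common isoforms of metabolic genes were bright, and several tissue-restricted ones were not detected. In glycolysis Aldoa read 8.23 and 8.15, Gapdh 7.67 and 7.45, Ldha 7.12 and 7.24, Pgam1 6.71 and 6.72, Gpi1 6.68 and 6.71 and Pgk1 6.49 and 6.32. The liver isoforms Slc2a2 and Pklr and the sperm isoforms Gapdhs, Pgk2 and Ldhc were on neither array, all at -6.87 or below on both. Of this list 27 of 34 were on both arrays. Of 38 respiratory genes 30 were on both arrays and 20 in the top 5%. Cox6a1 read 8.43 and 8.31, the nucleotide carrier Slc25a4 7.47 and 7.64, Atp5b 7.45 and 7.55, Cox5b 7.02 and 6.53, Cox4i1 6.82 and 6.58 and Cox8a 6.82 and 6.39. Cox4i2, Cyct and Cox8c were on 1 array and Slc25a31, Cox7b2, Cox8b, Ucp1 and Ucp3 on neither. The 4 genes of the mitochondrial genome with a probe, COX2, CYTB (8.30 and 8.16), ND4 (7.28 and 6.85) and ATP6 (5.56 and 5.67), were all in the top 5%. In the redox list, with 29 of 31 on both arrays, the ferritin Fth1 read 7.16 and 7.21, Sod1 6.90 and 6.77, Prdx2 6.83 and 6.68, Gpx1 6.63 and 6.42, Txn1 6.37 and 6.35 and Ftl1 6.15 and 6.56, while the epididymal Gpx5 and the olfactory Gpx6 were on neither.

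The list of galectins, annexins and S100 proteins held both bright and dark members. After S100a6, Lgals1 and S100a4 came Anxa1 (7.22 and 7.27), Anxa5 (7.24 and 6.98) and Anxa2 (6.10 and 6.12), with 9 of 35 in the top 5% and 27 on both arrays. S100a7a and Anxa13 were on 1 array, and Lgals7, Lgals2, S100a8, Anxa10, S100g and Lgals12 on neither. On chromosome 3, which also holds S100a4 and S100a6, S100a3 read -0.51 and -0.75, S100a5 -3.49 and -3.95 and S100a9 -3.18 and -5.33. These 3 are named outside the rule for genes of high signal and do not stand for all S100 genes there. S100a3 lay above the median of all genes, -1.79, and S100a5 and S100a9 lay below it on both arrays.

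Position and lineage factors ranged from the top 5% to background. Of 38 Hox genes, which record position along the body axis, 32 were on both arrays and 0 in the top 5%, with a median percentile of 49.1. Hoxb9 read 2.59 and 2.55, Hoxc6 2.29 and 2.37, Hoxc9 2.26 and 2.29, Hoxa7 2.06 and 1.96, Hoxb6 1.73 and 1.71 and Hoxb7 1.32 and 1.36, all of them from paralogous groups of the trunk. Hoxd12, Hoxc13, Hoxd3, Hoxd1, Hoxb1 and Hoxb13 were on neither array. Of 48 mesenchymal factors 40 were on both arrays and 4 in the top 5%. These 4 were the limb and skin factors Prrx1 (5.35 and 4.67) and Prrx2 (4.93 and 4.90), Twist2 (5.18 and 4.72) and Hic1 (4.72 and 4.42), and Snai1 (3.15 and 2.95) and Snai2 (2.57 and 2.77), factors of epithelial-mesenchymal transition, came next. Nr2f1 and Hand1 were on 1 array, and Lmx1b, Gata4, Foxf1, Tbx20, Irx3 and Tcf21 on neither. Of 49 factors of other lineages 10 were on both arrays, or 20.4%, and 34 on neither, and with the weaker flag 23 were on both. Among those with the highest signal were Gata2 (0.37 and -0.03), Gata3 (-0.51 and -0.65), Pax1 (-1.61 and -1.70), Pou4f1 and Nkx6-1, and Tal1, Isl1, Six6, Hnf4a and Myf6 were on 1 array.

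Markers of the labelled cell type were all detected, on a list chosen with earlier results of these data known, so this is a description and not a check of the label. All 16 fibroblast markers were on both arrays and 10 in the top 5%, with a median percentile of 97.5. Beside Col1a1, Col1a2, Col3a1, S100a4, Vim, Dcn, P4hb, Prrx1 and Pdgfrb, given above, Thy1 read 7.98 and 7.48, Postn 5.55 and 5.29, Ddr2 3.60 and 3.66, Pdgfra 2.43 and 1.85, Lum 2.05 and 2.05, Twist1 0.30 and 0.18 and Fap 0.11 and -0.05. All 10 smooth muscle and myofibroblast markers were on both arrays, 4 of them in the top 5%. Beside Tagln, Acta2 and Actg2, Cnn1 read 6.00 and 6.19, Lmod1 3.53 and 3.43, Smtn 1.52 and 1.82 and Mylk 1.59 and 1.56. Myh11, Des and the coactivator Myocd (-4.23 and -4.31) closed the list. Myh11 and Myocd, which mark mature smooth muscle, lay at percentiles 54.5 and 37.5.

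**Figure D5:**
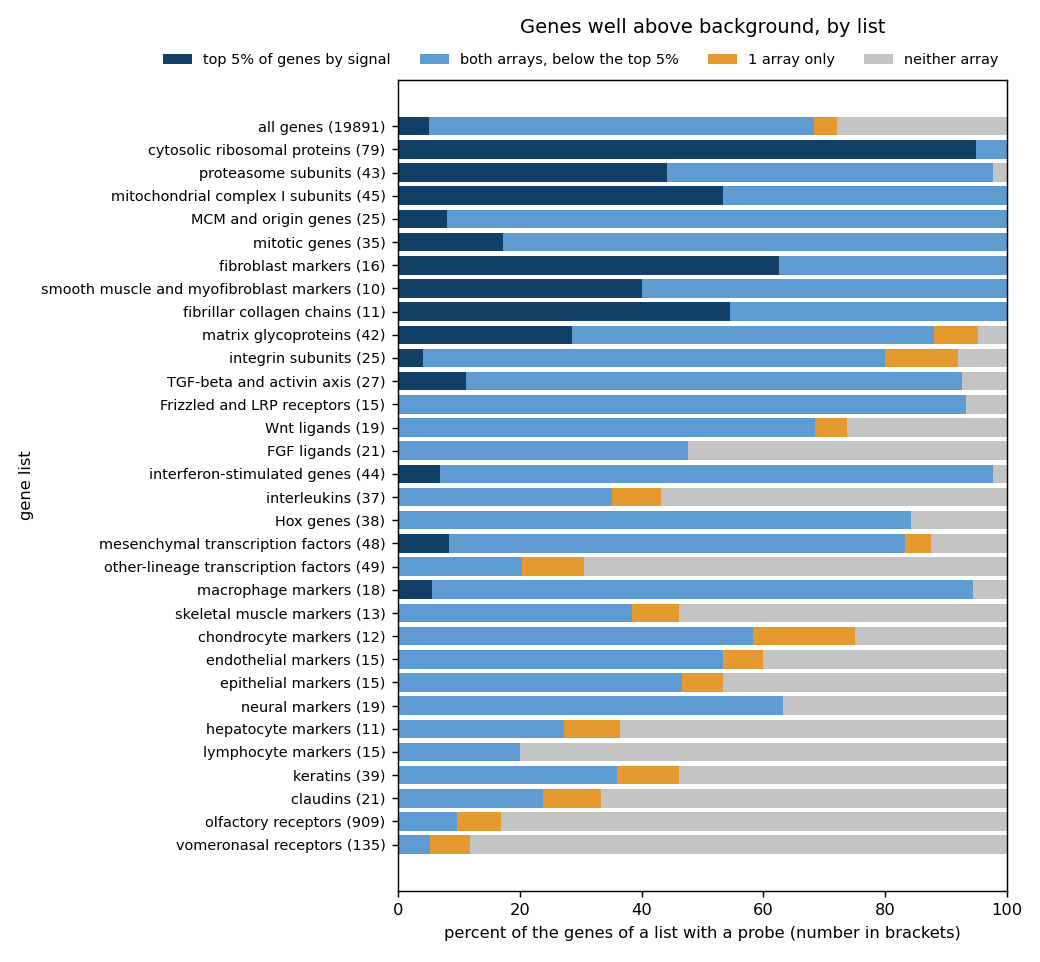
Share of the genes of a list or family (percent, horizontal axis; number of genes with a probe in brackets) in the top 5% by signal, on both arrays below it, on 1 array only, or on neither. Ribosomal and fibroblast genes fill the dark left end, and lymphocyte markers, claudins and the chemosensory receptors lie mostly in the grey of neither array, against the bar of all genes at the top.

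Other mesodermal lineages were read in part. Of 13 skeletal muscle markers 5 were on both arrays (10 with the weaker flag), Acta1, Des, Tnni2 (-1.80 and -2.46), Mylpf (-2.68 and -2.79) and Tnnt3 (-4.84 and -5.07). Myf6 was on 1 array, and the myogenic factors Myod1, Myog, Myf5 and Pax7 were on neither, with Ttn, Myh3 and Ckm. Of 12 cardiac markers 7 were on both arrays (11 with the weaker flag and 3 by the majority of probes), Actc1, Tnnt2 (0.02 and 0.10), Nppb (-0.96 and -0.91), Myl7 (-0.99 and -1.07), Nppa (-3.30 and -3.55), Tnni3 (-4.34 and -3.98) and Myh7 (-4.83 and -5.04), and Nkx2-5, Ryr2, Gata4, Myl2 and Myh6 were on neither. Of 12 chondrocyte markers 7 were on both, the cartilage collagen Col2a1 (2.02 and 1.94), its regulator Sox9 (0.26 and 0.09), Comp (-1.66 and -1.77), Col11a2 (-3.53 and -3.57), Acan (-3.57 and -4.45), Col10a1 (-4.39 and -4.22) and Chad (-4.58 and -4.10). Matn3 and Col9a1 were on 1 array and Cnmd, Hapln1 and Matn1 on neither. Of 10 osteoblast markers Spp1 was in the top 5%, Pth1r (0.21 and -0.40), Runx2 (-0.06 and -0.46), Phex (-3.43 and -3.71) and Bglap (-5.10 and -4.32) were on both arrays, Sp7 on 1, and Alpl, Dmp1 and Ibsp on neither. Of 12 adipocyte markers Lpl (1.25 and 0.75), Pparg (0.57 and 0.32), Fabp4 (-0.51 and -0.83), Cebpa (-1.93 and -2.25) and Slc2a4 (-3.48 and -3.76) were on both arrays, and Cidec, Plin1, Retn, Adipoq, Lep, Ucp1 and Cfd, most of them genes of the mature fat cell, on neither.

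Macrophage markers were detected more completely than those of lymphocytes and red cells. Of 18 such genes 17 were on both arrays, or 94.4%, with Lyz2, a lysozyme of myeloid cells, in the top 5% at 5.33 and 4.86. Lyz1 read 2.68 and 2.29, the signalling adaptors Fcer1g and Tyrobp 1.70 and 0.76 and 1.29 and 0.67, Cd14 0.97 and 0.50 and the complement chains C1qc, C1qb and C1qa 0.65 and -0.21, -0.64 and -0.88, and -0.77 and -1.06. Cd68 read -0.46 and -0.94, the growth factor receptor Csf1r -0.57 and -1.16, Adgre1, which encodes the F4/80 antigen, -0.77 and -1.34, and Aif1 -1.81 and -2.37. Ptprc (-2.75 and -3.49), Laptm5 (-3.44 and -3.55), Cx3cr1 (-3.42 and -3.94), Mrc1 (-3.68 and -4.53) and Itgam (-4.50 and -4.91) were dimmer, and the lineage factor Spi1 was on neither array. By contrast 3 of 15 lymphocyte markers were on both arrays, or 5 with the weaker flag, and 12 on neither, namely Cd4, Cd79a, Pax5, Rag1, Cd8a, Prf1, Gzma, Cd79b, Rag2, Cd3g, Ms4a1 and Cd3d, while Cd3e (-4.04 and -4.11) and Lck (-4.04 and -4.29) were dim. Of 11 erythroid markers 1 was on both arrays, Epor at -4.31 and -3.93, against 5 with the weaker flag. With replicate 2 read by itself 4 were well above background, Epor included. The globins Hbb-y (-6.54 and -4.76) and Hba-a1 (-6.63 and -5.65) and the band 3 gene Slc4a1 (-6.95 and -4.41) were well above background on 1 array, and Gata1, Ermap, Klf1, Hbb-bh1, Alas2 and Hba-x on neither.

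None of the markers of endothelium, epithelium and the nervous system was in the top 5%. Of 15 endothelial markers 8 were on both arrays (5 by the majority of probes), Flt1 (3.34 and 3.34), Egfl7 (0.30 and 0.02), Emcn (-0.91 and -0.74), Kdr (-2.37 and -2.53), Tek (-4.46 and -4.26), Vwf (-4.79 and -5.35), Erg (-5.66 and -5.45) and Esam (-5.59 and -5.63). Sox17 was on 1 array, and Cdh5 and Pecam1, which define the type, were on neither, with Robo4, Cldn5, Tie1 and Sox18. Of 15 epithelial markers 7 were on both arrays, Krt18, Krt19 and Krt8, given above, Dsp (-4.26 and -4.07), Krt5 (-4.05 and -5.03), Krt14 (-4.59 and -4.65) and Cldn3 (-4.87 and -5.21). Cldn4 was on 1 array, and Epcam and Cdh1 were on neither, with Cldn7, Ocln, Trp63, Esrp1 and Grhl2. Of 9 mesothelial markers Krt19, Msln (-0.08 and -0.79), Wt1 (-3.17 and -3.54), Upk1b (-3.41 and -3.71), Upk3b (-4.19 and -4.51) and Bnc1 (-4.72 and -5.13) were on both, Muc16 and Lrrn4 on 1 and Gpm6a on neither. Of 19 neural markers 12 were on both arrays, or 4 by the majority of probes, among them Tubb3 (2.90 and 2.78), S100b (-0.68 and -1.08), Mbp (-0.94 and -1.11), Elavl4 (-2.53 and -2.24), Map2 (-2.62 and -2.74), Stmn2 (-2.69 and -2.87), Nefl (-2.80 and -3.05), Nefm (-3.84 and -3.15), Sox10 (-4.70 and -4.65), Syt1 (-4.43 and -4.94) and Rbfox3 (-5.11 and -5.65). Elavl3, Pax6, Snap25, Dcx, Gfap, Sox2 and Nefh were on neither.

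Few liver and pluripotency genes were detected. Of 11 hepatocyte markers 3 were on both arrays (5 with the weaker flag), Apoa2 (-3.62 and -2.99), Tat (-4.17 and -4.22) and the fetal Afp (-4.66 and -4.93). Hnf4a was on 1, and Alb (-8.16 and -8.27), whose promoter is printed above, was on neither, as were Apob, Fga, Ttr, Apoa1, Fgb and Cps1. Of 14 pluripotency and germ cell markers 4 were on both arrays, or 9 with the weaker flag. Klf4 (4.45 and 4.10), Dppa5a (-2.51 and -2.53), Utf1 (-5.34 and -5.68) and Dppa3 (-5.27 and -5.76) were on both arrays, and Prdm1 and Dazl on 1. Pou5f1 and Sox2, core factors of the pluripotent state, were on neither, with Ddx4, Tdgf1, Zfp42, Esrrb, Mael and Lin28a.

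Of the immune gene lists, the interferon-stimulated genes had the highest share on both arrays and the highest median percentile. Of 44 interferon-stimulated genes 43 were on both arrays, or 97.7%, with 3 in the top 5% and a median percentile of 75.8. Ifi27 read 5.10 and 5.04, Bst2, which tethers virus particles, 5.11 and 4.34, the ubiquitin-like Isg15 4.94 and 4.13, Ifit3 4.23 and 3.24, and Irgm1 3.85 and 3.33, and Oas1g was on neither array. This list was higher on replicate 1 for 41 of 44 genes, by a median of 0.69, and the macrophage markers for 17 of 18, by a median of 0.50, against 0.09 over all genes on both arrays. The part of macrophage RNA in the interferon genes was not tested, and the experiments also differ in sex and slide. Of 34 chemokines 26 were on both arrays, with Ccl2, which attracts monocytes, at 6.25 and 5.85, Cxcl12 at 5.66 and 4.90, Cxcl14 at 5.17 and 4.87, Ccl7 at 4.87 and 4.83, Cxcl10 at 4.96 and 4.32 and Cx3cl1 at 2.92 and 2.62. The median percentile of the chemokines was 52.3, against 50 over all genes, and they were higher on replicate 1 by a median of 0.40. Cxcl11 was on 1 array, and Cxcl13, Cxcl15, Ccl1, Xcl1, Ccl24, Ccl28 and Ccl22 on neither.

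Of 37 interleukin and related genes, the signals between immune cells, 13 were on both arrays, or 22 with the weaker flag, and 21 on neither. Il17d (1.19 and 1.28), Il1rn (1.23 and 0.68), Il11 (0.58 and 0.21), Cntf (0.19 and 0.46), Il6 (0.06 and -0.05) and Clcf1 (-1.97 and -1.13) led, and Osm, Il24 and Il13 were on 1 array. Among the MHC genes the class I light chain B2m read 6.13 and 5.35, H2-T22 3.97 and 3.49, H2-K1 3.30 and 2.91 and H2-D1 2.84 and 3.18, followed by H2-Q2 and H2-T23. These class I genes are near copies of each other, and a probe may bind several. H2-T24 and the class II gene H2-Ab1 were on 1 array, and the class II activator Ciita and H2-Aa, H2-Ea, H2-Oa, H2-Ob, H2-DMb2 and H2-Q1 on neither. Of 9 Toll-like receptors 7 were on both arrays, Tlr9 (1.46 and 1.93), Tlr2 (-1.64 and -2.22), Tlr4 (-1.94 and -2.18), Tlr6, Tlr7 and Tlr3 leading, with Tlr1 on 1 and Tlr8 on neither. Of 26 complement genes 15 were on both arrays. Masp1 read 3.36 and 3.39, Cfp 0.98 and 0.52, C1qc 0.65 and -0.21, Cd59a -0.19 and -0.42 and Cd55 -0.37 and -0.62. Cfb was on 1 array, and the terminal components C6, C7, C8a, C8b and C9 were on neither, with C5ar1, Cfi, Mbl1, Mbl2 and Cfd.

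Imprinted genes and the microRNA pathway completed the groups. Of 42 imprinted genes, which are read from 1 parental copy, 38 were on both arrays and 6 in the top 5%. These were Igf2, the noncoding RNA H19 (6.96 and 6.38), Dlk1, an inhibitor of fat cell formation (6.49 and 5.97), Meg3 (5.69 and 5.15), Grb10 (5.28 and 4.91) and Plagl1 (5.02 and 4.03). Zim1 was on 1 array and Slc22a2, Slc22a3 and Calcr on neither. Of 17 genes of microRNA processing 15 were on both arrays. The transport GTPase Ran read 7.39 and 7.36, the slicer Ago2 4.55 and 4.36, the nuclear processing enzyme Drosha 4.12 and 4.07, Tarbp2 2.60 and 2.68, Adar 1.68 and 1.33 and Tnrc6a 1.72 and 1.08. Xpo5, the target of the siRNA not used here, read 1.22 and 1.17 in these controls, at percentile 73.0, and is named outside the rule for genes of high signal. Lin28a and Lin28b, which block let-7 maturation, were on neither array.

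Families defined by the stem of their names showed how far the detected share can run. Every member was on both arrays for the 33 aminoacyl-tRNA synthetases, the 25 core Sm and LSm proteins, the 45 mitochondrial complex I subunits and the 20 SRSF and SF3 splicing factors, 4 of 52 families. Examples are Sars (5.61 and 5.29), which charges serine tRNA, Snrpg (6.78 and 6.29), Ndufa13 (6.85 and 6.63) and Srsf2 (4.80 and 4.33). Heterogeneous nuclear ribonucleoproteins followed with 21 of 22, led by Hnrnpab (7.91 and 7.94), and helicases of the DEAD and DEAH type with 50 of 53, led by Ddx5 (5.21 and 4.92). Of 357 Zfp zinc finger genes 316, or 88.5%, were on both arrays with 2 in the top 5%, Zfp975 (4.90 and 4.84) and Zfp771 (4.51 and 4.42), and a median percentile of 53.3. That family is thus widely detected at middling signal. Rab GTPases had 61 of 69, ubiquitin-specific proteases 46 of 53, kinesins 31 of 36 and F-box proteins 54 of 73, of which Fbxo2 at 7.62 and 7.38 stood out.

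Solute carriers were detected about as often as all genes, and several families of channels, enzymes and sensory receptors less often. Of 363 solute carriers 236, or 65.0%, were on both arrays, led by Slc25a4 and by the zinc transporter Slc39a7 (6.46 and 6.26). Potassium channels had 34 of 91, led by Kcnab1 (1.84 and 1.83), and cytochromes P450 28 of 81, led by Cyp1b1 (4.59 and 4.01). Among transcription factors, the Sox family had 9 of 21 and the forkhead family 26 of 41, or 63.4%, led by Sox4 (0.39 and 1.42) and Foxk2 (2.32 and 1.96). Of 909 olfactory receptors 88, or 9.68%, were on both arrays, 66 on 1 and 755 on neither, and Olfr571 (1.30 and 1.53) and Olfr279 (-0.99 and -1.12) had the highest signal. Vomeronasal receptors had 7 of 135, taste receptors 1 of 16, Tas1r3 (-4.46 and -3.54), the CEACAM and PSG glycoproteins 1 of 22, Ceacam1, and the UDP-glucuronosyltransferases 1 of 15, Ugt1a6b (1.05 and 0.97). Families with few detected members held single genes of higher signal, such as Krtap4-6 of the hair keratin-associated proteins at 6.85 and 6.66, with 33 of the 43 genes of that family on neither array, and Defa3 of the defensins at 2.89 and 2.42, with 29 of 35 on neither. Whether these probes also bind another transcript was not tested.

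Gene class and probe makeup ran with detection as well. Protein-coding genes were on both arrays in 70.5% of cases, annotated long noncoding RNAs in 28.8%, or 256 of 889, pseudogenes in 68.1%, or 79 of 116, of which 30 were in the top 5%, and transcribed pseudogenes in 50.6%, or 79 of 156, of which 7 were. Across autosomes the share on both arrays ran from 61.8% on chromosome 7 to 74.9% on chromosome 12, and it was 61.0% on the X chromosome. Probes with under 35% G and C were well above background on both arrays in 29.4% of cases, and the share rose with each band to 76.9% at 55% or more. The part of probe composition in the detected shares of gene groups was not tested.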

How the data were processed

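Per the labels, total RNA of 2 control siRNA samples carried the Cy3 dye on Agilent arrays read in 1 colour. Spot intensity comes from the deposited scanner files, made with Agilent Feature Extraction 10.5.1.1 on probes placed on mm9, per the file headers; the processed signal used here is background-subtracted and spatially detrended by that software. The deposited series table holds log2 values, and 99.8% of its probes lie within 0.001 of the log2 processed signal shifted by 1 constant per array. Its 2 other columns, of the arrays not used here, were left out.

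The log2 processed signal was taken minus the 75th percentile of the array over non-control spots. Spots marked as outliers (90 and 77) were left out, control spots too, and spots of a probe were averaged. The depth of an array is its signal over background: 62.4% and 63.5% of spots were well above it. Probes were named through RefSeq (GRCm38.p6, names only): 26783 by accession, 5126 by symbol and 934 by a unique synonym, while 8331 stayed unnamed. Python 3.11.15 with pandas 2.3.3 was used, and limma 3.58.1 under R 4.3.3 for normexp with an offset of 50 and for quantile normalization. The steps were tested on simulated data.

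There is 1 group, so no test was made and no p-value is given, and the labels call the samples independent experiments without saying that the embryos differed. The control arrays lay on different slides. The gene lists (79) and the name-stem families with at least 5 members (52) were chosen with earlier results of these data known. Named genes are the 25 of highest signal, up to 6 of highest signal in each list with its members on 1 array or, where there are up to 15, on neither, every marker with the exception below, up to 3 in each family and the 10 detected genes with the largest gap between arrays. Alternatives were other detection rules, other ways to join probes, other background corrections and scalings, the deposited table and each array alone. Listed genes that no probe matched were not analysed here. Some members of the lists, markers among them, are not reported here by name; the counts include them.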

Additional observations from a re-analysis of the deposited data

How the results depend on the processing

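The number of genes on both arrays was 12095 to 15476 under the other detection rules (a weaker flag, the 99th percentile of the negative controls, the majority of the probes, outlier spots kept), against 13591. The number on neither array moved from 5561 to 2940 with the weaker flag, and that on 1 array only from 739 to 1475 with the weaker flag and to 2235 when the majority of a gene's probes had to be well above background. On single arrays 13934 and 13999 genes were well above background. Of the 25 brightest genes 13 stayed among the 25 brightest with averaged probes, and 13 with the median probe, an alternative chosen after seeing the data. This number was 22 with normexp, 24 with quantile normalization and 25 with median scaling and with the deposited table. It was 23 on replicate 1 alone and 22 on replicate 2 alone. The median percentile of the 79 lists shifted by over 10 points for 2 lists with averaged probes (up to 16.8). These were the fibrillar collagens, from 95.2 to 78.4, and the caveolins and cavins, from 92.4 to 79.7. The median shifted so for 1 list with normexp and for 0 with quantile normalization, median scaling or the deposited table. On single arrays it did so for the X inactivation transcripts and the Y-linked genes alone. The number of members on both arrays moved by over 1.5 times for 10 lists with the weaker flag, and for 7 by the majority of probes, each given beside its list except the Y-linked genes, of which 0 were then on both arrays. Without replicate 1 it was 6 for the Y-linked genes (2 on both arrays) and 4 for the erythroid markers (1 on both), and without replicate 2 it was 3 for the X inactivation transcripts (1 on both). No order was read among signals near background. No paired analysis was possible because the values come from 1 group and no test.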

Other observations

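Just below the 25 brightest genes lay several that belong to none of the gene groups above and were chosen after their values were seen. Genes of histone H2A were among them, with H2ac10 at 8.80 and 8.44, H2ac1 at 8.75 and 8.36, H2aj at 8.66 and 8.24 and H2ac20 at 8.50 and 8.02 on the log2 scale. The chromatin protein gene Hmga1, active in embryonic and dividing cells, read 8.56 and 7.94, and the actin crosslinker gene Flna 7.97 and 8.08. H2aj and Flna also have probes with means of 0.43 and -5.34. Among the aminoacyl-tRNA synthetases, the mitochondrial Lars2 read 8.08 and 8.96 with its only probe, at rank 32, and was higher on replicate 2, where the ribosomal RNA Rn28s1 (2.89 and 6.23) was higher as well.

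Of the 8331 probes that could not be paired with an official symbol, 2853, or 34.2%, were well above background on both arrays, against 66.8% of the named probes. Their transcripts enter no count above. Among long noncoding RNAs in the top 5%, beyond the imprinted ones, were Malat1, a nuclear RNA, at 5.13 and 5.66, and B230369F24Rik, at 6.59 and 6.41, both named after their values were seen.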
